A study of Mus musculus with 16 samples.

Results

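A set of 10 genes of the Nrf2 pathway and of the defence against superoxide was followed in brown adipose tissue (BAT) and gonadal white adipose tissue (gWAT) of mice with an adipocyte deletion of Pgam1, the gene of the glycolytic enzyme phosphoglycerate mutase 1. The genes were the transcription factor Nfe2l2 (Nrf2) and its inhibitor Keap1, the Nrf2 targets Nqo1, Hmox1, Txnrd1 and Srxn1, the superoxide dismutases Sod1, Sod2 and Sod3, and catalase (Cat). They were chosen by name, and each was read from the brightest array probe whose RefSeq accession belongs to it. All 10 were found among the 22911 genes with a symbol on the array.

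The mice were males of the strain C57BL/6NCrSlc. Adipo-Pgam1 KO mice carried Adipoq-Cre, in which the adiponectin promoter drives Cre in adipocytes, together with floxed Pgam1 alleles, and the littermate controls, labelled wild-type, carried the floxed alleles without Cre according to the methods. BAT and gWAT of each genotype were measured on 4 one-colour Agilent arrays, 16 in all. The mice were 16 weeks old, except replicate 4 of the Adipo-Pgam1 KO arrays in both tissues, which was 14 weeks old. The labels do not say whether arrays with the same number came from the same mouse, and p-values measure only the spread between these samples.

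Levels are given as the log2 of a probe's signal over the 75th percentile of its array, so a level of 0 equals that percentile. A difference of 1 is a 2-fold difference. The 75th percentile itself ranged over 401 to 451 for BAT controls, 650 to 916 for BAT Adipo-Pgam1 KO arrays, 570 to 855 for gWAT controls and 657 to 831 for the other gWAT arrays. In BAT, Pgam1 was at 7.94 in controls and 6.2 in Adipo-Pgam1 KO mice. In gWAT, the 4 arrays with the Adipo-Pgam1 KO label had the higher level of Pgam1 (6.31, against 5.36 for controls). This goes against the label, so those arrays are named by their label and each direction in gWAT rests on it. By PCR, the paper reports lower Pgam1 and higher Ucp1 and Cpt1b in gWAT of Adipo-Pgam1 KO mice. It also reports less Pgam1 protein, lower Pgam enzyme activity and more 3-phosphoglycerate in white fat. By staining, it reports more Ucp1-positive and Cpt1b-positive cells in gWAT. On these arrays, 4 of the 5 brown adipocyte markers tested were higher under that label. Whether labels were exchanged was not tested. Slide 2 of the 3 array slides held BAT control replicate 4, all 4 BAT arrays of Adipo-Pgam1 KO mice and gWAT control replicates 1 to 3. Slide 3 held gWAT control replicate 4 and all 4 gWAT arrays labelled Adipo-Pgam1 KO. Slides 1 and 2 were scanned on day 1 and slide 3 on day 2, so in gWAT slide and scan day split the arrays alike. Only control replicate 4 shared a slide and a day with the gWAT arrays labelled Adipo-Pgam1 KO, so the label can hardly be told apart from slide and day there. Groups were compared with limma, with Benjamini-Hochberg adjustment over all genes tested and a threshold of 0.05. Precision is limited by having 4 arrays a group.

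Nrf2 is a transcription factor that Keap1 holds in the cytoplasm and hands to the Cul3 ubiquitin ligase for degradation. Oxidants and electrophiles modify cysteines of Keap1, and Nrf2 then escapes to the nucleus, where it pairs with a small Maf protein and binds the antioxidant response element of its target genes. Its activity is set mainly by protein stability, which an array does not measure. Superoxide, made by mitochondria and by the NADPH oxidase of phagocytes, is turned into hydrogen peroxide by the superoxide dismutases, and catalase and the peroxidases remove the peroxide. Brown adipocytes are rich in mitochondria, and reactive oxygen species are among the signals studied in thermogenesis.

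The stretch around the start of each gene is shown for the members whose window held the core of the antioxidant response element, and for Nqo1, the member with the largest change in BAT. RefSeq windows of the build GRCm38.p6, from 250 bases before to 50 bases after an annotated start, were listed for 8 of the 10 genes. Hmox1 and Sod3 had no entry. The core, TGACNNNGC, was searched on both strands. It was found in the windows of Nfe2l2, Srxn1, Sod1 and 1 of the 3 starts of Txnrd1, and in no window of Keap1, Nqo1, Sod2 or Cat. Of all 32851 windows, 12.4% held it, and 14% of the 27025 genes with a window had it in at least 1 window. The match began 240 bases before the start in Nfe2l2, 92 in Txnrd1 and 56 in Sod1, and 28 bases after the start in Srxn1. The Srxn1 window also held 2 copies of the AP-1 motif TGACTCA, which 5.2% of all windows held. A copy of it followed by GC would also match the core, but neither of these 2 does when read as TGACTCA. On the strand shown both copies read TGAGTCA, and 1 of them is followed by GC (TGAGTCAGC). The core as searched begins with TGAC, so it leaves that stretch out, and other forms of the element were not searched. The windows are read 5′ to 3′ on the strand of the gene, with the core in capitals (Nqo1 has none): Nfe2l2 at chr2:75704614-75704913 on the minus strand, Txnrd1 at chr10:82858956-82859255 on the plus strand, Srxn1 at chr2:152105274-152105573 on the plus strand, Sod1 at chr16:90220512-90220811 on the plus strand, and Nqo1 at chr8:107403156-107403455 on the minus strand.
Nfe2l2: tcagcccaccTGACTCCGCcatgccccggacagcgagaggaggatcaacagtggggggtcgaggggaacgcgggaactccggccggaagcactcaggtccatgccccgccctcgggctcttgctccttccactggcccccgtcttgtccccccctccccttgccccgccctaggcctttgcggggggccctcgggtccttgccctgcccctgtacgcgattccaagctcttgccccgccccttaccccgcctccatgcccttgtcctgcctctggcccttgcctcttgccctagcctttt
Txnrd1: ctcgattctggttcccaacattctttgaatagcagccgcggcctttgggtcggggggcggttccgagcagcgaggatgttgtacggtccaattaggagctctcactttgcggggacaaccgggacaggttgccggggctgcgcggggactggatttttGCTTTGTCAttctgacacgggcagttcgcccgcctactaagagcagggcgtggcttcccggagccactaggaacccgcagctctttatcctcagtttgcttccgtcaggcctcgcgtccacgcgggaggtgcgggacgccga
Srxn1: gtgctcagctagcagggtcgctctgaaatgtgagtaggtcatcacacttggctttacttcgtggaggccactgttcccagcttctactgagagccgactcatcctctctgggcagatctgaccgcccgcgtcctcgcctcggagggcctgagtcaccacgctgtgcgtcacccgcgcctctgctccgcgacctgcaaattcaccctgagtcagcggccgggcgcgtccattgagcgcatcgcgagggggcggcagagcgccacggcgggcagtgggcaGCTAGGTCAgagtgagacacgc
Sod1: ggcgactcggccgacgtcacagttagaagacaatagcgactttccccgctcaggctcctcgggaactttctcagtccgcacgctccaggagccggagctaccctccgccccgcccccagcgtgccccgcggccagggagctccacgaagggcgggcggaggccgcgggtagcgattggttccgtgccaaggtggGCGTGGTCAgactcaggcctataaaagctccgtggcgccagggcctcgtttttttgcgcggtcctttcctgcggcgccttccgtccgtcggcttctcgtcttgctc
Nqo1: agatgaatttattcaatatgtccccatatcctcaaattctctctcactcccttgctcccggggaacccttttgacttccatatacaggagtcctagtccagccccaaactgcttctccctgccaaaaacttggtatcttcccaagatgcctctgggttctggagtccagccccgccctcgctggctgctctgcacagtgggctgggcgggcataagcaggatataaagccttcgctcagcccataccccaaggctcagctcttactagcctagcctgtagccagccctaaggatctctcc

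These letters are a description of the windows and do not show that Nrf2 binds there. Nqo1 had no core in its window, but the windows end 250 bases before the start, and elements further away were not searched.

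In BAT of Adipo-Pgam1 KO mice, Nfe2l2 and 3 of its 4 targets were higher than in littermate controls, whereas Keap1, the 3 superoxide dismutases and catalase were lower. Of the 10 members, 4 were higher and past the threshold, against 27.5% of the 14280 genes tested, and 5 were lower and past it, against 34%. In either direction 61.5% of all genes passed, so a count of 9 of 10 is read against a tissue in which most genes changed. The 2 groups did not overlap for any of the 10 members, and they did not overlap for 57.1% of all genes. The median change of the 10 members was -0.17 and that of all genes tested was -0.08.

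**Figure D1:**
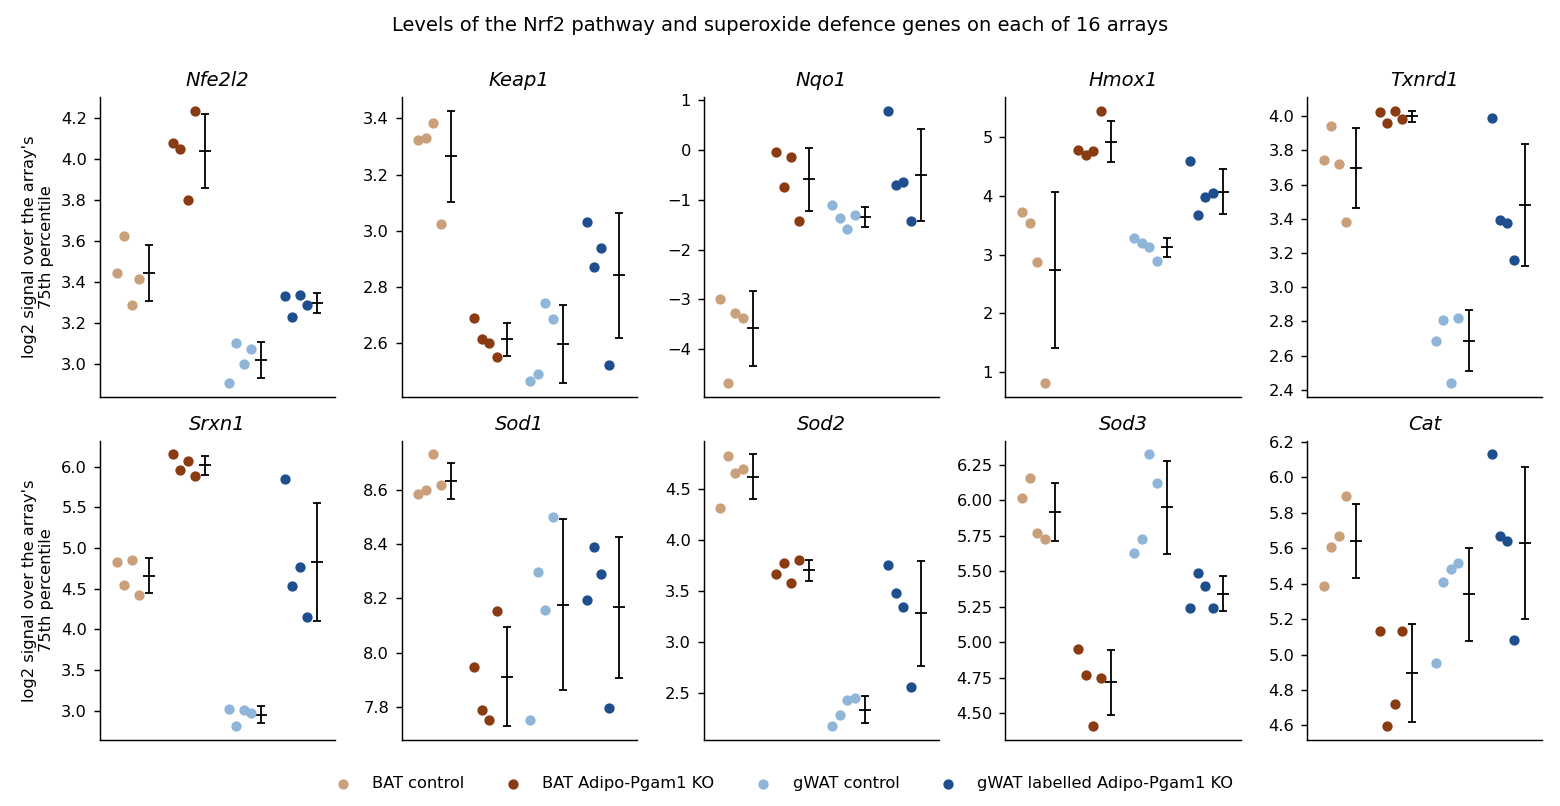
Levels of the 10 genes on each array, as log2 signal over the array's 75th percentile, in 4 BAT controls, 4 BAT Adipo-Pgam1 KO arrays, 4 gWAT controls and 4 gWAT arrays labelled Adipo-Pgam1 KO. Bars are the mean and SD of 4 arrays, and the vertical scale differs between panels. Hmox1 of BAT control replicate 4, at 0.81, lies below the other 3 controls, and Srxn1 of gWAT replicate 1 labelled Adipo-Pgam1 KO, at 5.84, lies above the other 3.

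Of the regulators, Nfe2l2 stood at 3.44, 3.62, 3.29 and 3.42 in the 4 BAT controls and at 4.08, 4.05, 3.80 and 4.23 in Adipo-Pgam1 KO mice. Every Adipo-Pgam1 KO array lay above every control. The change was 0.60 (standard error 0.12, adjusted p = 0.00261), or 1.51-fold. Keap1, the adaptor that marks Nrf2 for degradation, went the other way, from 3.32, 3.33, 3.38 and 3.03 in controls to 2.69, 2.61, 2.60 and 2.55. Control replicate 4 was the lowest control, yet above all Adipo-Pgam1 KO arrays. The change in Keap1 was -0.65 (standard error 0.10, adjusted p = 7.18e-04), or 1.57-fold lower. On slide 2, where control replicate 4 was the lone control, the changes were 0.62 for Nfe2l2 and -0.41 for Keap1, with the spread taken from the Adipo-Pgam1 KO arrays and pooled by limma over genes. Neither passed there (adjusted p = 0.0565 and 0.0824 in limma), but such a comparison rests on 1 control, and it called 41.6% of all genes.

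Of the 4 targets, Nqo1, Hmox1 and Srxn1 rose and Txnrd1 did not pass. Nqo1, a quinone reductase often read as the marker of Nrf2 activity, was dim in BAT controls, at -3.0, -4.68, -3.27 and -3.38, and control replicate 2 was not well above background. In Adipo-Pgam1 KO mice it stood at -0.03, -0.74, -0.15 and -1.41. All 4 of these arrays were well above background, and it met the filter for testing in BAT through them. The change of 3.0 (standard error 0.42, adjusted p = 3.27e-04) was 8.0-fold and ranked 308 of 14280 genes from the highest. Without the dim control replicate 2 it was 2.63, and with normexp background correction and quantile normalization it was 1.93, so the fold and the rank depend on how dim signals are handled.

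Srxn1, sulfiredoxin, which restores overoxidized peroxiredoxins, rose evenly. It stood at 4.83, 4.54, 4.85 and 4.42 in controls and at 6.15, 5.96, 6.07 and 5.89 in Adipo-Pgam1 KO mice, and the gap between the groups was wider than the range within either. The change was 1.36 (standard error 0.13, adjusted p = 4.38e-05), or 2.56-fold. Txnrd1, the cytosolic thioredoxin reductase, was at 3.74, 3.94, 3.72 and 3.38 in controls and at 4.02, 3.96, 4.03 and 3.98 in Adipo-Pgam1 KO mice. The groups did not overlap, but control replicate 2 came close to the lowest Adipo-Pgam1 KO array. The difference was 0.30 (95% confidence interval 0.02 to 0.58) and missed the threshold (adjusted p = 0.0611). The second probe of Txnrd1 differed by 0.40. Txnrd1 passed without control replicate 2 (0.38, adjusted p = 0.028 in limma). On slide 2 alone the difference was 0.61 (adjusted p = 0.0234), against the control that was the lowest of the 4.

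Hmox1, heme oxygenase 1, which breaks down heme, varied most among the controls. It was at 3.72, 3.53 and 2.88 in replicates 1 to 3 and at 0.81 in replicate 4, and at 4.79, 4.71, 4.77 and 5.45 in Adipo-Pgam1 KO mice. All Adipo-Pgam1 KO arrays exceeded all controls. The change was 2.19 (standard error 0.58, adjusted p = 0.0101), or 4.57-fold. It depended on control replicate 4: without it the change was 1.55, and on slide 2, where it was the lone control, 4.11, with both past the threshold (adjusted p = 0.00138 and 9.93e-04 in limma). The summed level of 5 erythroid markers on that array was 522, with 316 to 1337 on the other controls. Its summed level of 10 macrophage markers, 34.9, was the lowest of the 4 controls, with 35.6 to 51.7 on the others. The part of these cells in the Hmox1 level was not tested.

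The enzymes that remove superoxide and hydrogen peroxide were lower in BAT. Sod1, the cytosolic copper-zinc enzyme, fell from 8.59, 8.60, 8.73 and 8.62 in controls to 7.95, 7.79, 7.75 and 8.16, a change of -0.72 (standard error 0.11, adjusted p = 5.70e-04). Sod2, the manganese enzyme of the mitochondrial matrix, fell from 4.31, 4.82, 4.65 and 4.69 to 3.67, 3.77, 3.58 and 3.80, a change of -0.92 (standard error 0.13, adjusted p = 3.12e-04). In neither gene did an Adipo-Pgam1 KO array reach the lowest control.

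Sod3, the secreted extracellular enzyme, fell most of the dismutases. It stood at 6.02, 6.16, 5.77 and 5.73 in controls and at 4.96, 4.77, 4.41 and 4.75 in Adipo-Pgam1 KO mice. The change was -1.20 (standard error 0.15, adjusted p = 1.76e-04), or 2.29-fold lower. Catalase, the peroxisomal enzyme that splits hydrogen peroxide, stood at 5.39, 5.61, 5.67 and 5.90 in controls and at 5.13, 4.59, 4.72 and 5.13 in Adipo-Pgam1 KO mice. The nearest arrays of the 2 groups were closer than for the dismutases, and the change was -0.74 (standard error 0.16, adjusted p = 0.00401). On slide 2 alone the changes were -0.71 for Sod1, -0.99 for Sod2, -1.0 for both Sod3 and catalase, all past the threshold.

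The scaling of the arrays bears on these directions, because total signal differed between the groups. Scaling by the spike-in controls moved the median of all genes in BAT by 0.54 and scaling by Actb and Rplp0 moved it by -0.59, and each member moved by as much. With the spike-in controls, Keap1 (-0.11), Sod1 (-0.18) and catalase (-0.21) kept their sign but no longer passed, and Txnrd1 (0.84) passed. With Actb and Rplp0, Nfe2l2 was at 0.01 and Txnrd1 turned to -0.29. Nqo1, Hmox1 and Srxn1 were higher and Sod2 and Sod3 lower under each of these scalings. These 3 scalings shift all genes of an array alike, so changes relative to the median of all genes are the same under each by construction. They ran from 3.08 for Nqo1 to -1.11 for Sod3. Under quantile normalization, which is no such shift, they ran from 3.01 for Nqo1 to -0.91 for Sod3. Under quantile normalization Sod1 was at -0.13 and did not pass.

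**Figure D2:**
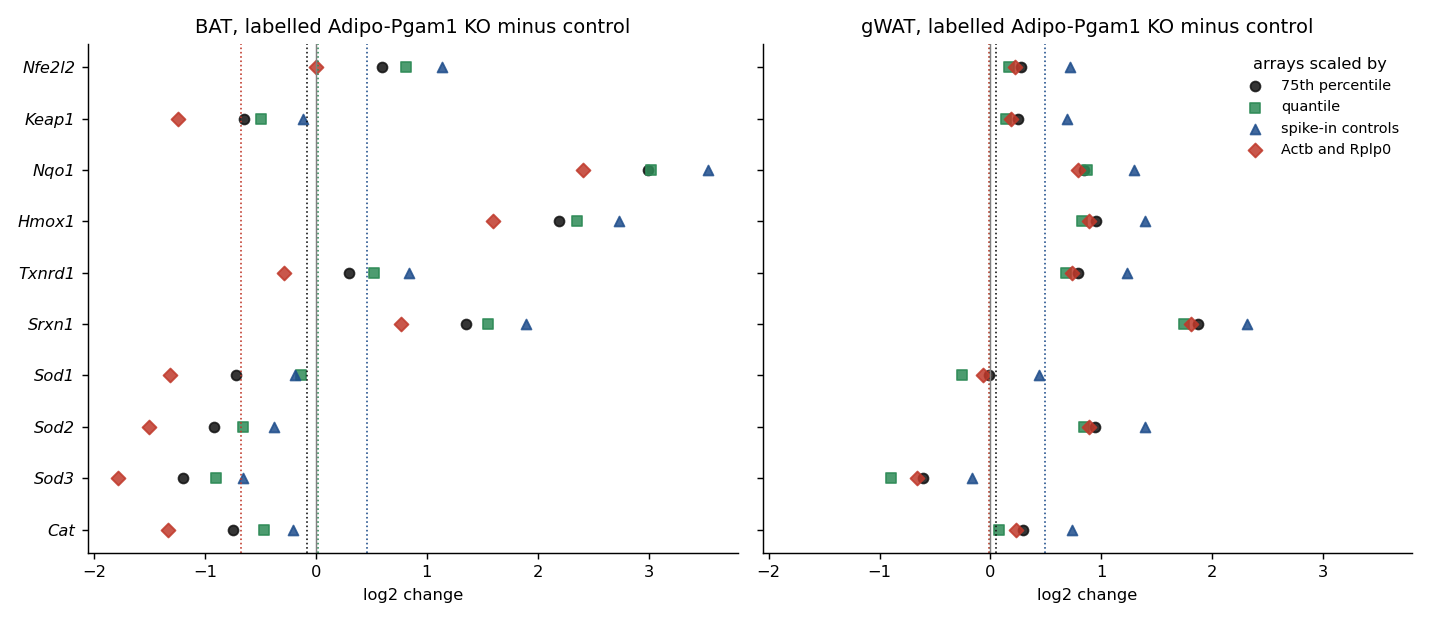
Log2 change of the 10 genes in BAT (left) and gWAT (right), arrays labelled Adipo-Pgam1 KO minus control, with arrays scaled by the 75th percentile (circles), by quantile normalization (squares), by spike-in controls (triangles) and by Actb and Rplp0 (diamonds). Dotted lines are the median of all genes under each scaling. In BAT, Nfe2l2 runs from 0.01 to 1.14 across scalings and Sod3 from -1.79 to -0.66.

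In gWAT, the 4 members that passed with a higher level under the Adipo-Pgam1 KO label were Hmox1, Txnrd1, Srxn1 and Sod2, against 9.99% of the 14149 genes tested. Sod3 was the 1 member past it and lower, against 7.85% of all genes. In either direction 17.8% of all genes passed. The groups did not overlap for 6 of the 10 members, against 24.2% of all genes, and overlapped for Keap1, Nqo1, Sod1 and catalase. The median change of the members was 0.54, and that of all genes was 0.05.

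Srxn1 changed most. It lay between 2.81 and 3.02 in the controls (3.02, 2.81, 3.01 and 2.98) and at 5.84, 4.53, 4.76 and 4.15 in the arrays labelled Adipo-Pgam1 KO. The lowest of these was above every control. The change was 1.87 (standard error 0.32, adjusted p = 0.00847), or 3.65-fold, and ranked 133 of 14149 genes from the highest. Without replicate 1, the highest array, it was 1.53 (adjusted p = 0.00574 in limma).

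Hmox1 stood at 3.28, 3.19, 3.14 and 2.90 in controls and at 4.59, 3.68, 3.98 and 4.06 in the arrays labelled Adipo-Pgam1 KO. The groups were apart by a mean of 0.95 (standard error 0.20, adjusted p = 0.0159), or 1.93-fold. Txnrd1 went from 2.68, 2.81, 2.44 and 2.82 to 3.99, 3.39, 3.37 and 3.16, a change of 0.79 (standard error 0.19, adjusted p = 0.0262). Its second probe changed by 0.59. Nqo1 stood at -1.10, -1.37, -1.58 and -1.31 in controls and at 0.79, -0.71, -0.64 and -1.42 in the other group. The arrays overlapped because replicate 4 lay among the controls, and the difference of 0.85 missed the threshold (95% confidence interval -0.07 to 1.76, adjusted p = 0.173). Without replicate 1 the difference was 0.42.

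Of the regulators in gWAT, Nfe2l2 stood at 2.91, 3.10, 3.0 and 3.07 in controls and at 3.33, 3.23, 3.34 and 3.28 in the arrays labelled Adipo-Pgam1 KO. These did not overlap, but the difference of 0.28 (95% confidence interval 0.03 to 0.52) missed the threshold (adjusted p = 0.106). Keap1 differed by 0.24 (95% confidence interval -0.09 to 0.58, adjusted p = 0.272), with controls at 2.47, 2.49, 2.74 and 2.69 and the other arrays at 3.03, 2.87, 2.94 and 2.52. Here again replicate 4 was the array inside the control range.

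Among the enzymes, Sod2 rose in gWAT. It was at 2.17, 2.29, 2.44 and 2.45 in controls and at 3.76, 3.48, 3.34 and 2.56 in the arrays labelled Adipo-Pgam1 KO, a change of 0.94 (standard error 0.24, adjusted p = 0.0304). Replicate 4 lay just above the highest control, and the other 3 lay well above it. Sod3 went from 5.63, 5.72, 6.32 and 6.12 to 5.24, 5.49, 5.40 and 5.24, a change of -0.61 (standard error 0.18, adjusted p = 0.0452). Sod1 gave no direction: it was at 7.75, 8.30, 8.16 and 8.50 in controls and at 8.19, 8.39, 8.29 and 7.80 in the other group. Its difference was -0.01 (95% confidence interval -0.45 to 0.43, adjusted p = 0.979) and changed sign to 0.11 when arrays were centred on their median and to 0.43 with the spike-in controls. Catalase stood at 4.95, 5.41, 5.48 and 5.52 in controls and at 6.13, 5.67, 5.64 and 5.08 in the other group, and its difference of 0.29 had a 95% confidence interval from -0.23 to 0.81 (adjusted p = 0.406).

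Several gWAT calls depended on single arrays. On slide 3, the slide with both groups, control replicate 4 was the lone control. None of the 10 members passed there in limma, where 0.855% of all genes did, so a lost call there says little. The changes on that slide were 1.85 for Srxn1, 1.18 for Hmox1, 0.83 for Sod2, 0.66 for Txnrd1 and -0.78 for Sod3 (adjusted p from 0.144 to 0.406 for these 5). The call of Sod3 was lost in 7 of the 8 fits that left out 1 array, that of Sod2 in 6 and that of Txnrd1 in 4, whereas those of Hmox1 and Srxn1 were kept in all 8. The count of members past the threshold fell from 5 to 2 without control replicate 2, control replicate 3, or replicate 2 or 3 under the Adipo-Pgam1 KO label, and to 3 without their replicate 1. In those 5 fits the share of all genes called was also lower, at 8.08% to 11.2%. With the spike-in controls the median of all genes in gWAT moved by 0.44, and 9 members passed, all higher, while Sod3 was at -0.16.

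**Figure D3:**
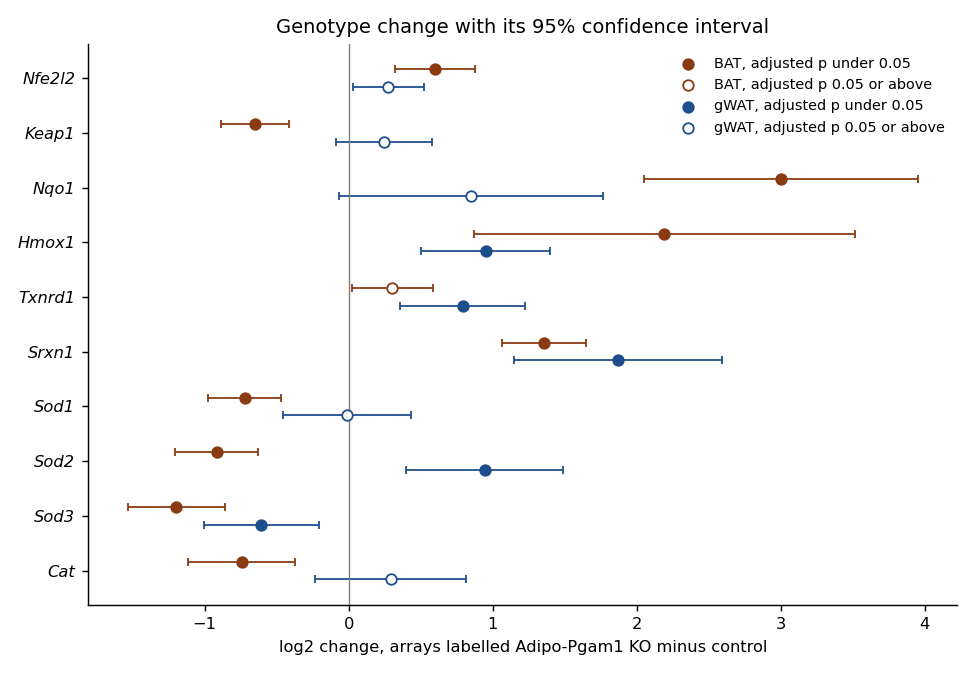
Log2 change of the 10 genes, arrays labelled Adipo-Pgam1 KO minus control (4 against 4 in each tissue), with the 95% confidence interval from limma, in BAT (brown) and gWAT (blue). Filled points passed an adjusted p of 0.05. Sod2 is at -0.92 in BAT and 0.94 in gWAT, and Nqo1 is at 3.0 in BAT and 0.85 in gWAT.

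The 4 gWAT arrays labelled Adipo-Pgam1 KO differed among themselves in a pattern shared by most members. Replicate 1 was the highest of the 4 in 7 members (Keap1, Nqo1, Hmox1, Txnrd1, Srxn1, Sod2 and catalase), and replicate 4, from the 14-week-old mouse, was the lowest in 8 (those without Hmox1, plus Sod1 and Sod3). The summed level of 7 brown adipocyte markers, in multiples of the 75th percentile, was 163, 104, 102 and 62.0 in replicates 1 to 4, against 7.07 to 13.1 in gWAT controls. The summed level of 10 macrophage markers was 92.7, 128, 155 and 267 in the same arrays, against 87.9 to 117 in controls. Of these 10 markers, 1 was higher and past the threshold in gWAT, where 9.99% of all genes were. The array highest in the brown adipocyte markers was thus the highest in 7 members and the lowest in the macrophage markers. Of the brown adipocyte markers, 4 of the 5 tested were higher under the Adipo-Pgam1 KO label, where 9.99% of all genes were. Ucp1 was not well above background in any gWAT control and well above it in 3 of the 4 other arrays. The part of these cells in the gWAT results was not tested.

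In BAT the brown adipocyte markers moved the other way. The brown adipocyte sum was 2471 to 2652 in controls and 934 to 1444 in Adipo-Pgam1 KO mice, and 5 of the 7 markers were lower and past the threshold. The adipocyte sum was 2452 to 2675 in controls and 816 to 1174 in Adipo-Pgam1 KO mice, with all 8 markers lower and past the threshold. The macrophage sum was 34.9 to 51.7 in controls and 134 to 196 in Adipo-Pgam1 KO mice, with 9 of 10 markers higher and past it. Of all genes tested in BAT, 27.5% were higher and 34% lower. No marker of these 3 lists was at background in BAT. Of the 5 endothelial and 4 erythroid markers and the 1 epididymis marker tested, none passed in either tissue by limma, and of the skeletal muscle markers 1 of 5 was higher in BAT and none of 6 passed in gWAT. The summed level of the 8 skeletal muscle markers stood apart on BAT Adipo-Pgam1 KO replicates 1 (82.4) and 3 (17.2), against 1.84 to 4.15 on the other BAT arrays. In gWAT it was 3.87 to 24.8 in controls and 29.9 to 58.3 under the Adipo-Pgam1 KO label. That sum is mostly Acta1, the brightest of the 8 in gWAT, with a mean log2 level of 3.28 in controls and 5.48 under the label. The median log2 change of the 6 skeletal muscle markers tested in gWAT was -0.34, so the sum does not speak for the list. The part of these cells in the BAT results was not tested, and in pieces of whole tissue a change in the number of cells of a type and a change in RNA per cell cannot be told apart.

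**Figure D4:**
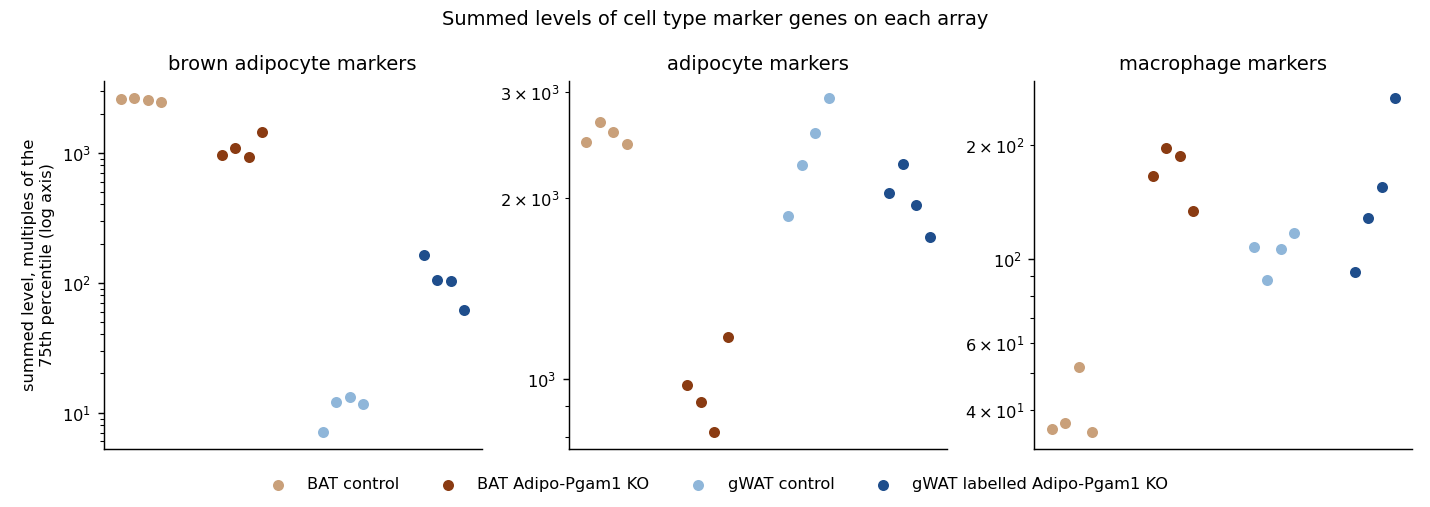
Summed levels of 7 brown adipocyte, 8 adipocyte and 10 macrophage marker genes on each of the 16 arrays, in multiples of the array's 75th percentile on a log axis. For brown adipocyte markers the gWAT arrays labelled Adipo-Pgam1 KO span 62.0 to 163 and gWAT controls 7.07 to 13.1. For macrophage markers BAT Adipo-Pgam1 KO arrays span 134 to 196 and BAT controls 34.9 to 51.7.

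The change differed between the tissues for 6 of the 10 members by the interaction term of limma, and 48.3% of the 14820 genes tested passed that test. Of the members, 5 had the more positive change in gWAT, against 27.4% of all genes, and 1 had it in BAT, against 21%. Sod2 differed most in the first direction: it fell in BAT and rose in gWAT, and the changes were 1.86 apart (standard error 0.28, adjusted p = 1.33e-04). Catalase (1.03, standard error 0.29, adjusted p = 0.00976) and Keap1 (0.90, standard error 0.17, adjusted p = 7.74e-04) were lower in BAT, with differences in gWAT that did not pass. For Sod1 the changes were 0.71 apart (standard error 0.23, adjusted p = 0.0181), but -0.13 apart under quantile normalization and -0.26 under normexp background correction with quantile normalization. For Sod3, lower in both tissues, the difference was 0.59 (standard error 0.23, adjusted p = 0.0489), near 0 under quantile normalization (-0.004) and -0.15 with normexp, and its call was lost in 10 of 16 fits that left out 1 array.

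Nqo1 was the member that passed this test with the larger rise in BAT, by 2.15 (standard error 0.63, adjusted p = 0.0112), or by 1.14 with normexp. For Hmox1 the change in BAT exceeded that in gWAT by 1.24, but the 95% confidence interval of the difference, gWAT minus BAT, ran from -2.65 to 0.17 (adjusted p = 0.135). Without BAT control replicate 4 it was -0.60. For Srxn1 the difference was 0.51 (95% confidence interval -0.26 to 1.29, adjusted p = 0.258), for Txnrd1 0.49 (-0.005 to 0.98, adjusted p = 0.0943) and for Nfe2l2 -0.32 (-0.64 to -0.003, adjusted p = 0.0887), which turned to 0.21 with Actb and Rplp0. Within the slides that held both groups, each with 1 control, 2 members passed this test, against 18.0% of all genes. These were Sod2 (1.82, adjusted p = 0.0454) and Hmox1 (-2.93, adjusted p = 0.0114), which rests on BAT control replicate 4. The calls of Keap1 (0.57), Nqo1 (-1.98), Sod1 (0.38), Sod3 (0.22) and catalase (1.11) were lost there.

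In the littermate controls, BAT was set against gWAT to show the levels from which these changes started. Higher in BAT and past the threshold were 6 members, against 35.4% of the 14304 genes tested, and 1 was lower, against 29.3%, and 64.7% of all genes passed in either direction. The groups did not overlap for 7 members, against 60.8% of all genes. Sod2 was 2.28 higher in BAT (standard error 0.14, adjusted p = 3.34e-06), or 4.86-fold, and Srxn1 was 1.71 higher (standard error 0.13, adjusted p = 1.11e-05), or 3.27-fold. Txnrd1 was 1.01 higher (adjusted p = 4.29e-04), Keap1 0.67 (adjusted p = 0.00158) and Nfe2l2 0.42 (adjusted p = 0.00926). The Nfe2l2 difference was smaller and did not pass with quantile normalization (0.15), spike-in scaling (0.19) or normexp (0.21). Nqo1 was the member lower in BAT (-2.24, standard error 0.34, adjusted p = 4.51e-04), or 4.73-fold lower (-1.29 with normexp). It met the filter for testing through the gWAT controls, because BAT control replicate 2 was not well above background. Its levels in BAT controls are near background, which limits this fold.

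Sod1 was 0.46 higher in BAT controls (adjusted p = 0.034), but quantile normalization turned this to -0.51 and normexp to -0.54, and the call was lost in 5 of 8 fits that left out 1 array. Hmox1 (-0.39, 95% confidence interval -1.69 to 0.91), Sod3 (-0.03, -0.45 to 0.39) and catalase (0.30, -0.08 to 0.68) did not pass. Their signs were not stable: Hmox1 was at 0.25 without BAT control replicate 4, Sod3 at 0.30 with Actb and Rplp0, and catalase at -0.14 under quantile normalization. On slide 2, with BAT control replicate 4 against gWAT control replicates 1 to 3, 4 members passed, against 33.1% of all genes: Sod2 (2.39), Srxn1 (1.47) and Nqo1 (-2.02), which had passed over all arrays, and Hmox1 (-2.39), which had not.

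Ranked over the 4 groups, Srxn1 was highest in BAT of Adipo-Pgam1 KO mice (6.02) and lowest in gWAT controls (2.95). The gWAT arrays labelled Adipo-Pgam1 KO (4.82) and BAT controls (4.66) lay between and overlapped. Hmox1 ran from BAT of Adipo-Pgam1 KO mice (4.93) through gWAT labelled Adipo-Pgam1 KO (4.08) and gWAT controls (3.13) to BAT controls (2.74), and only the last pair of neighbours overlapped. Nqo1 was at -0.49 in gWAT labelled Adipo-Pgam1 KO, -0.58 in BAT of Adipo-Pgam1 KO mice and -1.34 in gWAT controls, which overlapped as neighbours, and at -3.58 in BAT controls, apart from the rest. Txnrd1 and Nfe2l2 shared 1 order, from BAT of Adipo-Pgam1 KO mice (4.0 and 4.04) through BAT controls (3.7 and 3.44) and gWAT labelled Adipo-Pgam1 KO (3.48 and 3.30) to gWAT controls (2.69 and 3.02), with overlap in the middle pair.

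The dismutases did not share an order. Sod2 was highest in BAT controls (4.62), followed by BAT of Adipo-Pgam1 KO mice (3.71), gWAT labelled Adipo-Pgam1 KO (3.28) and gWAT controls (2.34), and the middle pair overlapped. Sod3 was at 5.95 in gWAT controls and 5.92 in BAT controls, which overlapped, then at 5.34 in gWAT labelled Adipo-Pgam1 KO and 4.72 in the BAT Adipo-Pgam1 KO arrays. Sod1 was highest in BAT controls (8.63), and gWAT controls (8.18), gWAT labelled Adipo-Pgam1 KO (8.17) and the BAT Adipo-Pgam1 KO arrays (7.91) overlapped as neighbours. Catalase was at 5.64 in BAT controls, 5.63 in gWAT labelled Adipo-Pgam1 KO, 5.34 in gWAT controls and 4.90 in the BAT Adipo-Pgam1 KO arrays, and Keap1 at 3.26, 2.84, 2.60 and 2.61 in the same groups, with every neighbour overlapping in both genes.

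By the root mean square difference between log2 profiles over the 16 arrays, each centred on its own mean, the members most alike were Keap1 and Sod1 (0.21). Among the 12360 genes well above background on every array, those nearest to Keap1 were Erlin2 (0.09) and Tmem9b (0.10), and those nearest to Sod1 were Idnk (0.11) and Dym (0.11). Nearest to Nfe2l2 were Mdm2 (0.14) and Cdh11 (0.15), and nearest to Txnrd1 were Prmt7 (0.13) and Cct3 (0.17). Sod2 was followed most closely by Car13 (0.15) and Grpel1 (0.16), Sod3 by Anxa6 and Ipo9 (both 0.17), and catalase by Phkb (0.15) and Rmdn2 (0.16). Because the measure grows with the spread of a gene, it was larger for the members that varied most over the arrays: the nearest were Fbxo27 for Srxn1 (0.38), Ripk3 for Hmox1 (0.47) and Triqk for Nqo1 (0.49), and the next were Angptl6 (0.39), Fgf18 (0.52) and Slc6a9 (0.55).

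The other genes of the pathway were read as lists. Of 8 regulators and partners of Nrf2, 4 were higher and 3 lower in BAT of Adipo-Pgam1 KO mice, where 27.5% of all genes were higher and 34% lower. With spike-in scaling 5 were higher and none lower, and with Actb and Rplp0 2 were higher and 3 lower. The small Maf proteins Mafk (1.67, standard error 0.23, adjusted p = 3.40e-04) and Maff (1.61, standard error 0.37, adjusted p = 0.00461), DNA-binding partners of Nrf2, rose most. Cul3, the scaffold of the ligase that degrades Nrf2, was lower (-0.77, standard error 0.14, adjusted p = 0.00146). These 8 genes had a median of 0.48, and of -0.11 with Actb and Rplp0. In gWAT, Maff alone passed (1.5, standard error 0.39, adjusted p = 0.0329), where 17.8% of all genes did, and the list's median was 0.35.

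Of 30 other Nrf2 targets, 29 were tested in BAT, where 12 were higher and 7 lower with a median of 0.31. The 19 called are to be read against 61.5% of all genes. With spike-in scaling 18 were higher and 1 lower (median 0.85), and with Actb and Rplp0 6 were higher and 13 lower (median -0.28), so the balance of directions depends on the scaling. Cbr3, a carbonyl reductase, went from a mean of 1.81 to 7.55, a rise of 5.74 (standard error 0.22, adjusted p = 1.60e-06), and Ephx1, microsomal epoxide hydrolase, by 3.01 (adjusted p = 1.01e-06). Slc7a11, the cystine transporter of glutathione synthesis, was not well above background in any control and was at least 2.05-fold higher, measured against the lowest signals well above background on those arrays. It met the filter for testing, and so the count of 12, through the 4 Adipo-Pgam1 KO arrays. No p-value is given for it, because its control signals are at background. The genes of the pentose phosphate pathway on the list, named after their values were seen, went different ways in BAT: Pgd rose by 1.0, while G6pdx (-0.73), Taldo1 (-0.50) and Tkt (-0.87) fell. In gWAT, 12 of 28 tested were higher and none lower, where 9.99% of all genes were higher and 7.85% lower. The list's median was 0.31, and the 12 held all 4 pentose phosphate genes (from 0.93 for Taldo1 to 1.70 for Pgd). Cbr3 rose by 2.54 there (standard error 0.42, adjusted p = 0.00798), the transporter Abcc4 by 1.89 (standard error 0.29, adjusted p = 0.00619) and malic enzyme, Me1, by 1.84 (standard error 0.36, adjusted p = 0.0133). On slide 3 alone none of the 28 passed, while their median was 0.53.

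Of 22 other peroxide and thioredoxin enzymes, 15 were lower and 1 higher in BAT, with a median of -0.70, where 34% of all genes were lower. Gpx8, a peroxidase of the endoplasmic reticulum, fell by 2.98 as log2 (standard error 0.23, adjusted p = 2.18e-05), Gpx1 by 1.49 (standard error 0.13, adjusted p = 3.45e-05) and the secreted Gpx3 by 1.33 (standard error 0.21, adjusted p = 7.26e-04). With the spike-in controls 7 were lower and 2 higher, and with Actb and Rplp0 20 were lower and none higher (median -1.29). In gWAT, 6 were higher and 1 lower, with a median of 0.31, where 9.99% of all genes were higher and 7.85% lower. Glrx rose by 1.39 (adjusted p = 0.00361) and Gpx4, which reduces lipid peroxides, by 1.12 (adjusted p = 0.0125), and Gpx3 fell by 1.16 (adjusted p = 0.021). On slide 3 alone none of the 22 passed and the median was 0.04.

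**Figure D5:**
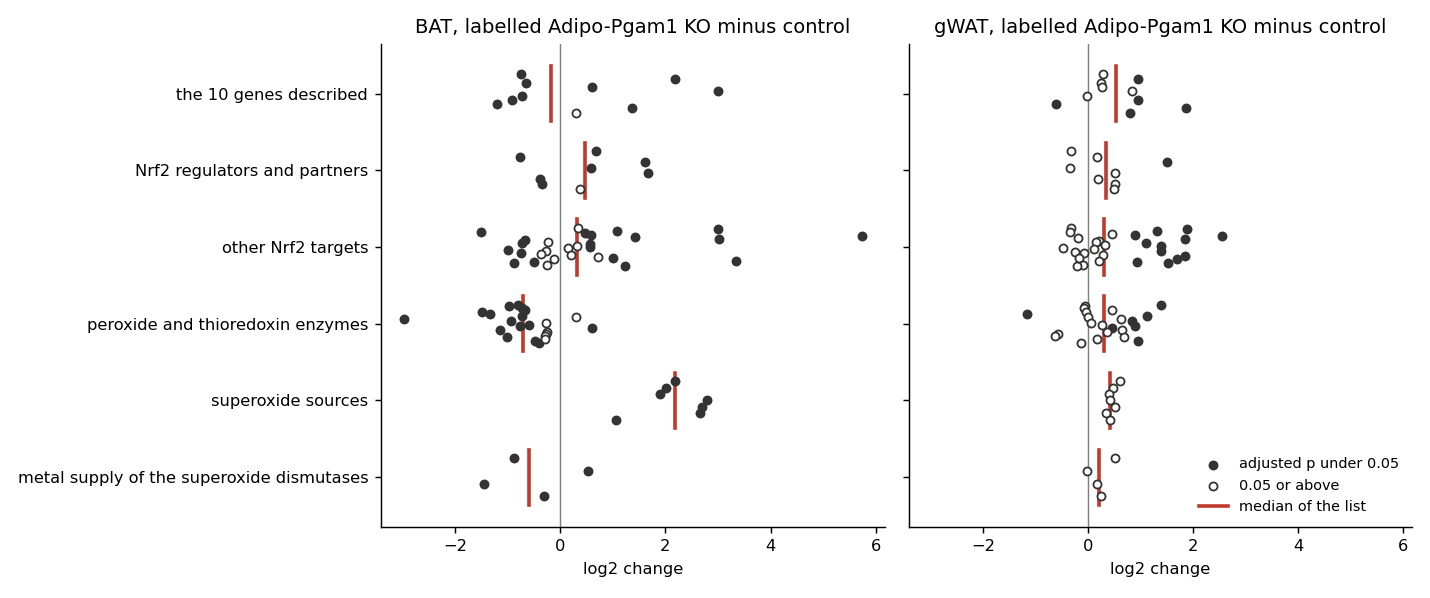
Log2 change of each tested gene of the 6 lists in BAT (left) and gWAT (right), arrays labelled Adipo-Pgam1 KO minus control. Filled points passed an adjusted p of 0.05, and red bars are list medians. In BAT the superoxide sources have a median of 2.18 and the peroxide and thioredoxin enzymes one of -0.70, and in gWAT these medians are 0.42 and 0.31.

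Of 8 sources of superoxide, 7 were tested in BAT, and all 7 were higher, with a median of 2.18, where 27.5% of all genes were higher. Of the 7, Cybb was well above background on 3 of the 4 controls and met the filter for testing through the Adipo-Pgam1 KO arrays. Ncf4 (2.70, adjusted p = 1.78e-05), a cytosolic subunit of the phagocyte NADPH oxidase, and its activator Rac2 (2.65, adjusted p = 5.68e-06) were among those that rose most. The 10 macrophage markers had a median of 2.79 in BAT. In gWAT none of the 7 passed in limma, where 17.8% of all genes did. Their median there was 0.42, and that of the macrophage markers 0.48. The part of macrophages in these values was not tested in either tissue. Of 5 genes that supply the dismutases with metal, 4 were tested. Ccs, the chaperone that loads copper into Sod1, fell by 1.44 as log2 in BAT (standard error 0.11, adjusted p = 2.10e-05), as did the copper chaperone Atox1 by 0.88 (adjusted p = 4.21e-04), while the copper transporter Atp7a was higher by 0.53 (adjusted p = 0.0134). In gWAT none of the 4 passed in limma, where 17.8% of all genes did, and their median was 0.20.

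The change of genes on the lists was also compared between the tissues, where 27.4% of all genes had the more positive change in gWAT and 21% in BAT. Of the 22 peroxide and thioredoxin enzymes, 13 had the more positive change in gWAT and none in BAT, with a median difference of 0.89, led by Gpx8 (3.60, adjusted p = 4.23e-06), Glrx (2.19, adjusted p = 9.32e-06) and Gpx4 (1.85, adjusted p = 6.02e-05). Of the 7 superoxide sources, 6 had the more positive change in BAT, with a median of -1.57. The other Nrf2 targets split, with 9 more positive in gWAT, among them Tkt (2.38) and the glutathione transferase Gsta4 (2.38), and 7 in BAT, led by Cbr3 (-3.19, adjusted p = 2.15e-04). Of the regulators, 2 were more positive in gWAT, among them Cul3 (0.95), and 3 in BAT, among them Mafk (-1.15) and Bach1 (-1.01), a repressor at the antioxidant response element. Ccs (1.60) and Atox1 (1.39) were more positive in gWAT and Atp7a (-0.55) in BAT. In the controls, 13 of the 22 peroxide and thioredoxin enzymes were higher in BAT than in gWAT and 4 lower, and all 7 superoxide sources were lower, where 35.4% of all genes were higher and 29.3% lower.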

How the data were processed

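The authors hybridised RNA of BAT and gWAT to 1-colour Agilent mouse arrays and read them with Agilent Feature Extraction 10.7.1.1, per the file headers. The amount of RNA labelled differs between the labels and the methods and is not given here. The deposited scanner files hold an intensity per spot, background-subtracted by the scanner software, and a score of 0 or 1 that marks spots well above background. The authors also deposited a table of intensity normalized in GeneSpring, which was used as an alternative. Its scale, each array's 75th percentile, was inferred by setting it against the scanner values.

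Here, a probe's spots were averaged, and its level was the log2 intensity minus the log2 of the array's 75th percentile. Of 35886 probes with a RefSeq accession, 32994 (91.9%) matched a symbol in the RefSeq table, giving 22911 symbols, and 23611 of all 56605 probes had none. The brightest probe stood for a gene. Genes were tested where 1 or more groups had the probe well above background on each of its 4 arrays. Groups were compared with limma 3.58.1 in R 4.3.3 (lmFit and eBayes), each genotype comparison on its own 8 arrays and the difference between tissues on 16, with Benjamini-Hochberg adjustment over all genes tested and a threshold of 0.05. The scripts were tested on simulated data.

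All 10 members are named throughout. Of each other list, the genes named are those among the 3 with the largest change that passed, unless stated otherwise, and 1 such gene is not reported here. Members and lists were chosen with earlier results of these data known. Slide and scan day, other scalings, background correction, filters, probe choice, the replicate number as a block, each array left out and the methods' t-test were tried as alternatives.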

Additional observations from a re-analysis of the deposited data

Results flagged for a closer look

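In 2 of the 40 combinations of a gene and a group, 1 array stood apart from the other 3, where the gap to the nearest array was set against the whole range of the group. Chance alone flags about 1 in 20 groups. Keap1 in BAT controls had its lowest array, replicate 4 (3.03), apart by 0.83 of the range, which is right at the limit used. Hmox1 in BAT of Adipo-Pgam1 KO mice had its highest array, replicate 4 (5.45), apart by 0.893 of the range.

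The change of 6 genes differed between the tissues by the interaction term of limma. The change in gWAT minus that in BAT was 0.90 for Keap1, -2.15 for Nqo1, 0.71 for Sod1, 1.86 for Sod2, 0.59 for Sod3 and 1.03 for catalase. In gWAT each of these rests on arrays whose label is against their Pgam1 level. Their causes were not tested.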

How the results depend on the processing

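Of 1037 values of single genes over 33 other settings, 881 kept direction and side of the threshold, 103 lost the call, 30 gained it and 23 changed sign. The 5 gWAT calls became 9 with spike-in scaling, 2 with no filter on dim probes, 3 by the methods' t-test after Benjamini-Hochberg adjustment, and 0 with slide or scan day as a block or on slide 3 alone. Over all genes, the 2525 gWAT calls became 5101 with spike-in scaling, 1384 with median centring, 1138 with no filter, 184 with slide or scan day as a block, 121 on slide 3 alone 4040 in one fit of all arrays, and 4666 and 1612 by the methods' t-test before and after adjustment. The 7162 differences between tissues became 3265 with slide and 4560 with scan day as a block and 2668 within slides, and the 9254 tissue differences in controls 4738 within slide 2. For the difference between tissues 2 members passed in place of 6: Sod2 and Hmox1 with slide as a block or within slides, and Sod2 and Keap1 with scan day as a block. In controls 4 passed within slide 2 in place of 7, of which 3 were among the 7. With 1 array left out, counts ran from 9 to 10 in BAT, 2 to 4 in gWAT, 5 to 7 for the difference and 6 to 7 in controls. Whether the replicate numbers pair arrays is not given. Same-numbered arrays of BAT and gWAT had correlations of 0.11 to 0.29 for 3 of 4 numbers in each genotype, but of -0.07 and -0.19 for number 4. Between the 2 genotypes of a tissue, the correlations ran from 0.0004 to 0.22 in BAT and from -0.14 to 0.43 in gWAT. These values do not settle whether the numbers are pairs, and the numbers were not treated as pairs. With the replicate block, 9, 2, 5 and 7 members passed in BAT, gWAT, the difference and controls, and 1087 genes in gWAT.

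Signs changed as follows. With quantile normalization and with normexp, BAT against gWAT in controls was -0.14 and -0.16 for catalase and -0.51 and -0.54 for Sod1, and the difference between tissues was -0.13 and -0.26 for Sod1 and -0.0041 and -0.15 for Sod3. With Actb and Rplp0, Txnrd1 in BAT was -0.29, the Nfe2l2 difference 0.21 and Sod3 in controls 0.30. Sod3 in controls was 0.0047 with median centring and 0.024 with scan day as a block, and ran from -0.14 to 0.091 with 1 array left out. Sod1 in gWAT was 0.11 with median centring and 0.43 with spike-in scaling, and ran from -0.15 to 0.11 with 1 array left out. Hmox1 in controls ran from -0.72 to 0.25. Of the genes called that were higher, the share in BAT was 44.8%, but 79.6% with spike-in scaling and 17.7% with Actb and Rplp0. In gWAT it was 56.0%, but 95.3% and, with median centring, 71.0%. The cause of each change was not tested. Nqo1 in BAT controls is near background, which limits its fold.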
